A study of Mus musculus with 18 samples.

Results

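The chromatin state of macrophages given LPS + (+)-JQ1 was compared with that of resting cells by ATAC-seq, in which the enzyme Tn5 cuts and tags exposed DNA, and the number of reads over a region stands for its accessibility. The libraries were chosen by their labels, as the 3 libraries of LPS + (+)-JQ1 and the 3 libraries of unstimulated, untreated cells, 6 of the 18 libraries of the series. All cells were bone marrow-derived macrophages (BMDMs) of 3 Il10-/- mice on the C57BL/6J background, 12-week-old males per the methods of the study, grown for 6 days in medium with L929 conditioned medium. Cells of the LPS + (+)-JQ1 group received 500 nM (+)-JQ1 for 12 hours and then 50 ng/mL LPS for 4 hours, and unstimulated cells remained without (+)-JQ1 and LPS for the same 16 hours, with PBS in place of LPS per the labels. Every library carries the Il10 deletion, so the comparison describes cells that cannot make IL-10 and does not extend to wild-type cells. The groups differed by both agents, and within this comparison the effect of LPS and the effect of (+)-JQ1 cannot be told apart. The labels call the unstimulated cells untreated, while the methods of the study name a vehicle control, and if these cells had no vehicle, its effect cannot be told apart from that of (+)-JQ1 either. The (+)-JQ1 libraries and the LPS libraries, 3 each, are therefore given beside some results.

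LPS, a component of the Gram-negative bacterial outer membrane, is sensed by TLR4, whose adaptors MyD88 and TRIF activate NF-kappaB, AP-1 and IRF3. Type I interferon made in response then acts on the same cells through its receptor and induces antiviral genes. In macrophages NF-kappaB, AP-1 and IRF factors bind beside the lineage factor PU.1 and open enhancers near cytokine, chemokine and interferon-stimulated genes. BET proteins read acetylated histones and bring P-TEFb to genes, and (+)-JQ1 occupies their bromodomains.

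Sequences of some of the peaks named below are shown first, from the mm9 genome, the build of the deposited peaks. Within the promoter peak of Ccl5, which had the largest rise of all peaks named here, the 200 bases before the most upstream annotated start of the gene (chr11:83344021-83344220, minus strand, outside exons) are given on the strand of the gene. Capitals mark matches to the kappaB letters (GGG, any 5 bases and CC), a form that NF-kappaB can bind, and to the PU.1 letters GAGGAAG, each searched on both strands, and a kappaB match and the PU.1 match overlap. These letters stood in 45.0% and 8.80% of the windows of the same length before 22238 annotated genes.
Ccl5 promoter: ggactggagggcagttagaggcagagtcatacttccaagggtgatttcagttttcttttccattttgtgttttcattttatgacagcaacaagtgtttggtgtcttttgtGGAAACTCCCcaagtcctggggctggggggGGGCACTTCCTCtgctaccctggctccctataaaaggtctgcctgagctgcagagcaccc
The next lines show stretches of peaks that rose, centred on a match to the AP-1 letters TGANTCA or the IRF letters (GAAA, any 2 bases and GAAA), in capitals. They were picked for holding these letters. Among the largest rises named below, only the peaks upstream of Gbp7 and at Mir155 held either in their central 500 bases. The AP-1 and IRF letters stood there in 12.7% and 6.10% of all promoter peaks and in 19.3% and 7.44% of all other peaks. The stretches come from the Mir155 locus (chr16:84713664-84713730 and chr16:84713626-84713695), from upstream of Gbp7 (chr3:142187292-142187358), from an intron of Ptges (chr2:30780902-30780968) and from upstream of Hif1a (chr12:74997580-74997646), all on the plus strand, and the 2 stretches at Mir155 overlap.
Mir155 AP-1: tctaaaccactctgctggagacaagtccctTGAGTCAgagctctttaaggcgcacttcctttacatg
Mir155 IRF: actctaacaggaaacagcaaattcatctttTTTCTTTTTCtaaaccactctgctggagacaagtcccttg
Gbp7 AP-1: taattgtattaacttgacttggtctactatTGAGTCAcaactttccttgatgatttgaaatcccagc
Ptges AP-1: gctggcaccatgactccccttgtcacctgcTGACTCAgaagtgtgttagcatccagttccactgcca
Hif1a AP-1: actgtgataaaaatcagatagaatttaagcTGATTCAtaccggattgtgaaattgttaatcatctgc
The last line shows a peak downstream of Zfp36l2 that fell, around its PU.1 letters (chr17:84578114-84578180, plus strand). For these lines, AP-1 and IRF letters were searched only in peaks that rose and PU.1 letters only in peaks that fell. The lines therefore do not contrast the motifs of rises and falls. Outside promoters, the PU.1 letters stood in the central 500 bases of 22.9% of rises and 25.2% of falls.
Zfp36l2 PU.1: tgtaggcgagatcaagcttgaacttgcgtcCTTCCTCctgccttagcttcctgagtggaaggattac
A match is a run of letters and not a measured binding site.

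The 194230 peaks that passed the filter on low counts were tested, of which the authors classed 36666 as promoter, within 1000 bases upstream and 100 bases downstream of a transcription start site (TSS), and 157564 as distal. Unstimulated libraries held 12020526 to 17586208 counts in all peaks, and those with LPS + (+)-JQ1 13619436 to 25908198. Counts are given below as normalised read counts per peak, scaled by TMM to a common library size and listed in the order of replicates 1, 2 and 3. A peak was called a differentially accessible region (DAR) where its log2 fold-change (log2FC) was above 0.5 in size at an FDR below 0.05 by edgeR's quasi-likelihood test, and values after ± are standard errors (SE) of the log2FC unless an SD is named. Promoter peaks took 40.8% to 45.5% of the counts of unstimulated libraries and 46.0% to 48.0% of those with LPS + (+)-JQ1, lowest in unstimulated replicate 1, and the part of this in the results was not tested. Promoters of macrophage markers were open in both groups, with Csf1r at 405, 463 and 597 in unstimulated cells and 803, 839 and 788 with LPS + (+)-JQ1. Among T cell markers, Cd3e, Cd3g, Cd3d, Cd4 and Cd8a had no promoter peak and Zap70 averaged 13.3 and 7.85. Lck averaged 242 and 368 and Tcf7 212 and 179. The 5 B cell marker promoters averaged 21.2 to 133 in unstimulated cells. Those of neutrophil, dendritic cell and stromal markers averaged 32.1 to 448, 17.7 to 482 and 34.3 to 423, beside 120 to 620 for macrophage markers. Open marker promoters thus do not separate macrophages from other cells. Peaks within 25 kb of marker genes of T cells, B cells, neutrophils, dendritic cells and stromal cells rose in 8 of 77, 7 of 65, 3 of 75, 12 of 55 and 2 of 53 cases. These were 10.4%, 10.8%, 4.00%, 21.8% and 3.77%, against 10.0% of all tested peaks. Falls were 9.09%, 4.62%, 2.67%, 3.64% and 5.66%, against 7.84%.

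Peaks changed in both directions between resting cells and cells given (+)-JQ1 and LPS. Of all tested peaks, 17.8% were DARs (3.94% in a test against a log2FC of 0.5 and 4.49% within sequencing lane 6), 10.0% with higher and 7.84% with lower accessibility than in unstimulated cells. At distal sites the rises and falls were nearly equal in number (8.34% and 8.45%), while at promoters rises prevailed (17.1% and 5.21%), and DARs were 22.3% of promoters and 16.8% of distal peaks. With a |log2FC| above 1 falls outnumbered rises at distal sites, with 4867 distal peaks higher and 7717 lower, and 782 promoters higher and 738 lower. These distal falls were of weak peaks, with medians of 28.7 counts at rest and 11.6 after, against 38.6 and 108 for the rises. The test against a log2FC of 0.5 gave the opposite balance, with 4385 distal peaks higher and 2107 lower, and an FDR under 0.01 gave 10216 and 5681. The excess of rises at promoters rests on scaling promoter and distal peaks together, and turned to 2148 higher and 4532 lower when the tables were fitted separately. That fit gave 15106 distal peaks higher and 9507 lower, and DESeq2 13128 and 9966, so the near balance at distal sites also depended on the fit. Unstimulated replicates 1 and 2 and LPS + (+)-JQ1 replicate 1 were sequenced on lane 5 and the other 3 libraries on lane 6, and 20710 peaks rose and 8523 fell within lane 5 and 5747 and 2972 within lane 6, where a lone library is taken to vary like the other groups. By position, 14.3% of peaks that touched an exon rose and 7.67% fell, against 7.26% and 8.27% of other peaks in introns and 10.0% and 7.49% between genes. Here and below, any overlap with an exon places a peak in it, wherever its centre lies. In the same fit, 21.9% of peaks were DARs for LPS and 11.0% for (+)-JQ1 against the same unstimulated libraries, so these comparisons share their controls. Against LPS alone 5.22% of peaks were DARs, against (+)-JQ1 alone 9.27%, and the test of the interaction of both agents passed at 3.84%.

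The direction of change varied with how open a peak was. In the weakest of 10 equal bins of promoter peaks, at a median of 14.8 normalised counts, the median log2FC was -0.24, and in the strongest bin, at 801 counts, it was 0.51. Distal peaks ran from -0.24 in the weakest bin to 0.32 in the strongest. Promoters of housekeeping genes, which were tested as a reference, had a median log2FC of 0.45 over 14 genes. The Gapdh promoter, of the glycolytic enzyme, had 621, 729.8 and 878 counts in unstimulated libraries and 1091, 1070.4 and 929 with LPS + (+)-JQ1 (log2FC 0.47 ± 0.13, adjusted p = 0.00641), and was not called. At Gapdh, as at 27.2% of promoter peaks, the unstimulated libraries were all below the treated ones, with replicate 1 the lowest. With offsets that follow peak strength, the housekeeping median was -0.01 and 1739 promoters were higher and 2214 lower, in place of 6268 and 1911. With total counts in peaks as the scaling, the median log2FC of all peaks moved from -0.06 to -0.29, and the share of DARs that were higher from 56.0% to 20.6%. The balance of rises and falls over the genome thus rests on the scaling, and the lists below are given beside the median of all peaks.

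**Figure D1:**
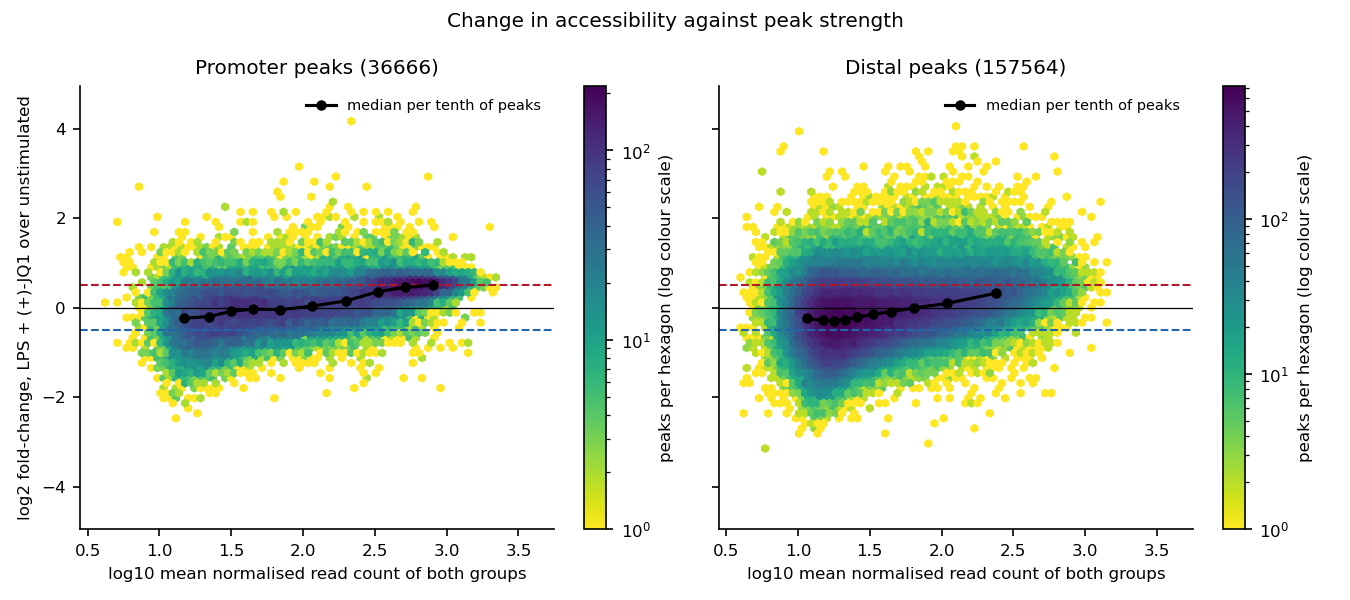
Each hexagon counts peaks by the log10 of the mean normalised read count of both groups (x axis) and the log2 fold-change of LPS + (+)-JQ1 over unstimulated (y axis), with dashed lines at 0.5 and -0.5 and black points for the median of each of 10 equal bins of the peaks. The medians are higher in the strongest than in the weakest bin, though not step by step, and go from -0.24 to 0.51 at promoters and from -0.24 to 0.32 at distal peaks.

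The largest rises among distal peaks lay near Mrpl39, Gbp7, Ccl4, Klf6 and Ifit3, and among promoters at Ccl5, Mx2, Mir155 and Tnfaip2. They were chosen for their size within this comparison, so their values are a description. The promoter peak of Ccl5 (chr11:83343409-83344339, over the first exon and upstream), which encodes a chemokine for T cells and monocytes, had 35.2, 22.7 and 16.5 normalised counts in unstimulated cells. With LPS + (+)-JQ1 it had 555, 393 and 341 (log2FC 4.12 ± 0.20, adjusted p = 5.84e-33), a 17.4-fold rise. The 3 treated libraries lay far above the 3 unstimulated ones, with replicate 1 the highest. A distal peak 2986 bases downstream of the TSS of Ccl4 (chr11:83478265-83479880), a chemokine of the same family, went from 61.6, 52.6 and 49.4 to 875, 618 and 529.6 (log2FC 3.62 ± 0.18, adjusted p = 1.87e-33).

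Near Mir155, the gene of a microRNA that LPS induces in macrophages, 2 named peaks rose. The peak over its exon (chr16:84712952-84713960), whose AP-1 and IRF letters are shown above, had 44.0, 38.2 and 31.9 counts in unstimulated cells and 397, 234 and 255 with LPS + (+)-JQ1 (log2FC 2.94 ± 0.19, adjusted p = 2.19e-24). A peak in an intron of the neighbouring Mrpl39 (chr16:84721267-84721945), which encodes a mitochondrial ribosomal protein, had 18.9, 12.4 and 10.3 and 362, 180.4 and 147 (log2FC 4.03 ± 0.27, adjusted p = 2.89e-24). In both, replicate 1 was the highest of the treated libraries and no treated library overlapped an unstimulated one. All treated libraries lay above all unstimulated ones at 27.2% of promoter and 13.3% of distal peaks.

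Genes of the interferon response followed. Upstream of Gbp7, a guanylate-binding GTPase that acts on intracellular pathogens, a peak at chr3:142187182-142187943 went from 28.9, 22.7 and 11.3 to 353, 185 and 248 (log2FC 3.65 ± 0.23, adjusted p = 1.66e-25). The peak 3507 bases upstream of Ifit3 (chr19:34653884-34655146), whose product restricts viral RNA, went from 17.6, 25.8 and 16.5 to 139.9, 275 and 275 (log2FC 3.54 ± 0.23, adjusted p = 6.91e-25), and here replicate 1 was the lowest treated library. A peak that the authors classed as promoter, in an exon of Tmprss2 and 30987 bases downstream of the TSS of the interferon-induced GTPase gene Mx2 (chr16:97788423-97788933), went from 20.1, 23.7 and 14.4 to 166, 193 and 168 (log2FC 3.17 ± 0.22, adjusted p = 4.47e-23).

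In 2 of the largest rises the treated cells were more open than cells given LPS without (+)-JQ1. The distal peak 32584 bases upstream of Klf6 (chr13:5827730-5828574), a zinc finger transcription factor, had 39.0, 23.7 and 15.4 counts in unstimulated cells and 454, 236 and 237 with LPS + (+)-JQ1 (log2FC 3.57 ± 0.22, adjusted p = 9.48e-26). The LPS libraries averaged 176 ± 18.1 and the (+)-JQ1 libraries 43.6 ± 7.19 (SD, n = 3), and LPS + (+)-JQ1 exceeded LPS (log2FC 0.78 ± 0.17, adjusted p = 0.000909). At Tnfaip2, a TNF-induced gene, the peak over an exon (chr12:112688277-112692115) had 176, 179 and 152 counts in unstimulated cells and 1856, 995 and 996 with LPS + (+)-JQ1 (log2FC 2.92 ± 0.16, adjusted p = 6.46e-30), with replicate 1 the highest treated library. LPS libraries averaged 656 ± 80.7 (SD, n = 3), below LPS + (+)-JQ1 (log2FC 0.96 ± 0.14, adjusted p = 2.85e-07). At the other 7 of these 9 peaks the mean with LPS + (+)-JQ1 was below that with LPS, by log2FC -0.45 at the Mir155 exon (adjusted p = 0.0569) to -1.15 at Gbp7 (adjusted p = 3.47e-08).

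The largest falls among distal peaks lay near Cerk, Dnm1l, Entpd1, Slamf6 and Vsig4, and among promoters at or near Cerk, Pnpla7, BC051665 and 6330512M04Rik. The last of these peaks also overlaps an exon of Ctsd. At Cerk, which encodes ceramide kinase, the promoter peak of 7869 bases (chr15:85981064-85988932) had 352, 309 and 365 counts in unstimulated cells and 93.7, 113 and 94.7 with LPS + (+)-JQ1 (log2FC -1.77 ± 0.15, adjusted p = 1.09e-17). A distal peak in an exon of the neighbouring Gramd4 (chr15:85960827-85961900) fell from 88.0, 189 and 147 to 13.0, 13.3 and 21.9 (log2FC -3.07 ± 0.25, adjusted p = 1.69e-18), an 8.41-fold fall. The unstimulated libraries of the second peak spread widely, with replicate 1 the lowest, and yet all lay above the treated ones.

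Entpd1 encodes CD39, which breaks down extracellular ATP. The peak 8462 bases downstream of its TSS, outside annotated genes (chr19:40818004-40820270), had 139.6, 142 and 186 counts in unstimulated cells and 21.6, 37.9 and 20.4 with LPS + (+)-JQ1 (log2FC -2.55 ± 0.24, adjusted p = 2.49e-15). It averaged 42.3 ± 16.1 with (+)-JQ1 alone and 25.5 ± 5.84 with LPS alone (SD, n = 3), both far below the unstimulated mean of 156. The difference of LPS + (+)-JQ1 from (+)-JQ1 alone did not pass the test here (log2FC -0.66 ± 0.28, adjusted p = 0.126).

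Vsig4 encodes a complement receptor of resident tissue macrophages. A peak in one of its exons on the X chromosome (chrX:93439438-93443538) fell from 116, 179 and 229 to 38.9, 29.7 and 31.3 (log2FC -2.42 ± 0.22, adjusted p = 1.58e-16). Upstream of Slamf6, a receptor of the SLAM family, a wide peak (chr1:173834056-173842137) fell from 318, 324 and 449 to 53.3, 82.0 and 66.3 (log2FC -2.42 ± 0.17, adjusted p = 2.33e-23), and 53248 bases upstream of the mitochondrial fission gene Dnm1l another (chr16:16409828-16414916) fell from 224, 258 and 366 to 37.5, 49.2 and 42.3 (log2FC -2.71 ± 0.19, adjusted p = 2.13e-22). All 3 peaks had no overlap between the groups, as held for 15.8% of all tested peaks in the lower and 15.9% in the higher direction. Among promoters, Pnpla7, a lysophospholipase, fell from 96.8, 85.7 and 117 to 26.0, 23.6 and 26.2 (log2FC -1.98 ± 0.25, adjusted p = 2.3e-10). The strongest of these peaks at rest, over exons of Ctsd and 6330512M04Rik (chr7:149558390-149563637), fell from 1196, 1244 and 1634 to 359, 450.1 and 399 (log2FC -1.75 ± 0.14, adjusted p = 1.65e-19). Its centre lies 1355 bases from the TSS of 6330512M04Rik. The most accessible promoter peak of Ctsd, which encodes the lysosomal protease cathepsin D, is another one and is given below. A promoter peak near the predicted gene BC051665 fell by 1.90 on the log2 scale. At these 9 peaks the log2FC of LPS + (+)-JQ1 over LPS lay between -0.70 at Vsig4 (adjusted p = 0.0719) and 0.51 at 6330512M04Rik (adjusted p = 0.015), and only that at 6330512M04Rik passed the test. The log2FC of (+)-JQ1 alone over unstimulated lay between -1.90 at Entpd1 (adjusted p = 7.06e-09) and 0.26 at 6330512M04Rik (adjusted p = 0.216).

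**Figure D2:**
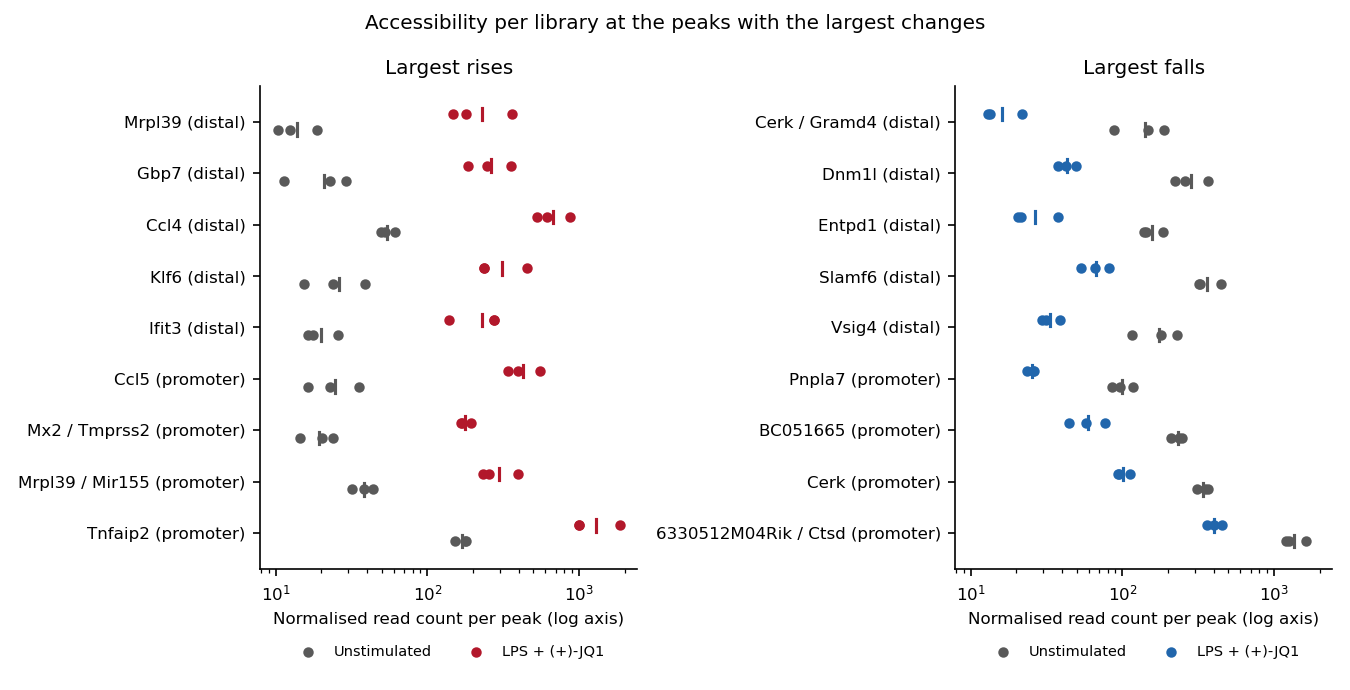
Normalised read count per peak (log axis) in each of the 3 unstimulated libraries (grey) and the 3 LPS + (+)-JQ1 libraries (red for rises, blue for falls), with short lines at the means, at the peaks with the largest changes, labelled by nearest gene and, after a slash, the gene whose exon or intron holds the peak. No library of one group reaches into the other at any of the 18 peaks.

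The regions around cytokine and chemokine genes had many rises and no falls. Each list was described by the tested peaks within 25 kb of the TSSs of its genes and by the most accessible promoter peak of each gene. For 19 cytokine genes, 116 of 296 peaks rose (39.2%), against 10.0% of all tested peaks, with a median log2FC of 0.46 against -0.06 for all peaks. No peak of this list fell in edgeR's test, against 7.84% of all tested peaks, 8 were lower at an unadjusted p under 0.05, and 0 fell in DESeq2. Il1b, the gene of an inflammasome-processed cytokine, had 107, 105 and 109 counts at its promoter in unstimulated cells and 309, 210.2 and 254 with LPS + (+)-JQ1 (log2FC 1.25 ± 0.16, adjusted p = 2.8e-10). Il6 went from 161, 216 and 239.9 to 495, 570.1 and 440.0 (log2FC 1.28 ± 0.15, adjusted p = 1.18e-11). Il27, a subunit of a cytokine that acts on T cells, went from 116, 141 and 155 to 532, 359.9 and 396 (log2FC 1.63 ± 0.15, adjusted p = 1.33e-15). At all 3 promoters every treated library exceeded every unstimulated one, as held for 27.2% of all promoter peaks, and each promoter remained below LPS alone. Il1b stood 257 against 666 with LPS (log2FC -1.38 ± 0.14, adjusted p = 2.01e-13), Il27 429 against 756 (log2FC -0.83 ± 0.14, adjusted p = 4.61e-06), and Il6, under the threshold of size, 502 against 695 (log2FC -0.47 ± 0.14, adjusted p = 0.021).

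The deleted gene, Il10, was itself surrounded by rises. Its promoter peak had 65.4, 106 and 126 counts in unstimulated cells and 101, 124 and 114 with LPS + (+)-JQ1, and did not pass the test (log2FC 0.18 ± 0.19, adjusted p = 0.536). All 18 libraries carry the same disrupted gene, so this peak checks no label. Of 20 peaks within 25 kb, 14 rose. The one with the largest rise (chr1:132936989-132937813), 20978 bases downstream of the TSS and between genes, went from 20.1, 29.9 and 32.9 to 222, 129 and 90.3 (log2FC 2.35 ± 0.25, adjusted p = 3.41e-13), with replicate 1 the highest. The LPS libraries averaged 126 ± 24.5 there (SD, n = 3). For Tnf, 11 of 16 peaks rose, and no promoter peak in the window used here was found.

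Chemokine genes had 74 of 186 peaks higher (39.8%, against 10.0% of all tested peaks), with a median log2FC of 0.51. No peak of this list was lower by edgeR or DESeq2, with 2 lower at an unadjusted p under 0.05. Cxcl2, which draws neutrophils, rose at its promoter from 185, 213 and 224 to 1298, 778 and 771 (log2FC 2.18 ± 0.15, adjusted p = 3.44e-23). Cxcl10, an interferon-inducible chemokine for T cells, rose from 132, 132 and 148 to 526, 551 and 541 (log2FC 1.97 ± 0.14, adjusted p = 1.27e-21). Replicate 1 was well above the other treated libraries at Cxcl2 and level with them at Cxcl10. The monocyte chemokine genes Ccl2, Ccl7 and Ccl12 rose at their promoters by log2FC 1.09, 1.07 and 1.45. Against LPS alone, neither Cxcl2 (log2FC -0.25 ± 0.14, adjusted p = 0.338) nor Ccl2 (log2FC 0.34 ± 0.13, adjusted p = 0.103) passed the test. Cxcl9 and Cxcl3 did not pass the test, at log2FC 0.38 and 0.20.

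The 9 immunity-related and guanylate-binding GTPase genes had rises at 53.2% of their peaks, against 10.0% of all tested peaks, and interferon-stimulated genes had 45.3%. Of peaks near 20 interferon-stimulated genes, 149 of 329 rose and 1 fell, with a median log2FC of 0.55, and 19 of their 20 promoters rose. For the GTPases, 67 of 126 rose, 0 fell in edgeR or DESeq2, and 0 were lower at an unadjusted p under 0.05. Isg15, a ubiquitin-like modifier, went from 103, 121 and 167 at its promoter to 591, 580.3 and 468 (log2FC 2.05 ± 0.16, adjusted p = 9.54e-21). Gbp2 went from 229, 317 and 290.3 to 1174, 989 and 968 (log2FC 1.90 ± 0.14, adjusted p = 1.76e-21). At either promoter all treated libraries lay above all unstimulated ones, as held for 27.2% of all promoter peaks. Against LPS alone Isg15 was lower (log2FC -0.62 ± 0.14, adjusted p = 0.00112) while Gbp2 did not pass the test (log2FC -0.19 ± 0.13, adjusted p = 0.472). Around Rsad2 and Cmpk2, neighbours that encode the antiviral protein viperin and a nucleotide kinase, 21 of 23 and 21 of 24 peaks rose, in windows that overlap.

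Single sites of the interferon genes went against the rest. The one called fall, in a promoter peak over an exon of Oas2, the gene of a sensor of double-stranded RNA (chr5:121183893-121186891), went from 85.5, 53.7 and 53.5 to 36.0, 41.0 and 39.3 (log2FC -0.70 ± 0.23, adjusted p = 0.0195), and was not called in 8 of 21 alternatives. The mean was 137 with LPS alone, above unstimulated cells, and 23.6 with (+)-JQ1 alone, below them. Another promoter peak of Oas2, its most accessible one, rose from 161, 177 and 209 to 278, 330 and 295 (log2FC 0.72 ± 0.15, adjusted p = 0.000114). Of 17 peaks within 25 kb of Oas2, 5 rose and 1 fell. At the promoter of Oasl1, the treated libraries had 17.3, 35.9 and 53.9 counts and the unstimulated ones 47.8, 26.8 and 23.7, which overlap (log2FC 0.24 ± 0.27, adjusted p = 0.583). LPS alone averaged 145 there, above LPS + (+)-JQ1 (log2FC -1.93 ± 0.23, adjusted p = 1.35e-10).

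Genes of the NF-kappaB system had many rises, spread unevenly over the members. Of peaks near 14 subunits and inhibitors, 132 of 281 rose (47.0%) and 2 fell (0.71%), with a median log2FC of 0.56. The shares over all tested peaks were 10.0% and 7.84%. Nfkb1, the gene of the p50 precursor, had 35 of 43 peaks higher, and Tnfaip3, the gene of the inhibitor A20, 15 of 23. Downstream of Nfkbia, which encodes the inhibitor IkappaB-alpha, a distal peak (chr12:56584706-56586420) went from 81.7, 107 and 141 to 1377, 1058 and 888 (log2FC 3.31 ± 0.17, adjusted p = 4.65e-32). LPS alone averaged 942 ± 18.5 (SD, n = 3) at that peak, and its difference from LPS + (+)-JQ1 did not pass the test (log2FC 0.23 ± 0.14, adjusted p = 0.432). Rela, the gene of the p65 subunit, had 1 of 18 peaks higher, and the log2FC at its promoter was 0.66 beside the housekeeping median of 0.45. Relb had 4 of 22 peaks higher, Nfkbib 2 of 17 and Nfkbid 1 of 15. The larger of the 2 falls, within 25 kb of Nfkbid, lay in the neighbouring Aplp1, with 40.2, 28.9 and 38.1 counts before and 15.9, 12.3 and 23.3 after (log2FC -1.005), a call lost in 9 of 21 alternatives.

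Near 11 genes of AP-1 factors, 40 of 204 peaks rose (19.6%, against 10.0% of all tested peaks) and 4 fell, with a median log2FC of 0.28. The counts depended on the scaling, with 16 higher and 7 lower with offsets that follow peak strength and 16 and 12 with total counts. Their promoters had a median of 0.44, beside 0.45 for housekeeping promoters. Upstream of Atf3, an LPS-induced repressor of cytokine genes, a peak (chr1:193017274-193018433) went from 156, 174 and 246 to 422, 568 and 433 (log2FC 1.30 ± 0.15, adjusted p = 1.47e-11), and the mean with (+)-JQ1 alone was already 354. In an intron of Fosl2 a peak fell from 77.9, 44.4 and 49.4 to 18.7, 33.8 and 32.8 (log2FC -0.94).

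Receptors, adaptors and feedback genes had more rises than falls. Near 17 Toll-like receptor and adaptor genes 82 of 287 peaks rose (28.6%) and 5 fell (1.74%). Near 13 STAT and SOCS genes 75 of 246 rose (30.5%) and 3 fell (1.22%), against 10.0% and 7.84% of all tested peaks. Total counts gave 43 higher and 21 lower for the former, 42 higher and 10 lower for the latter, and 74 higher and 8 lower for the cytokine list above. Irak2, a kinase of the MyD88 complex, had 23 of 30 peaks higher and a promoter that went from 756, 807 and 876 to 1909, 1761 and 1738 (log2FC 1.15 ± 0.13, adjusted p = 7.54e-12). Tlr2, the receptor for bacterial lipoproteins, went from 169.7, 257 and 255 to 642, 665 and 543 (log2FC 1.43 ± 0.14, adjusted p = 2.1e-14), and Cd14, the LPS co-receptor, from 224, 265 and 400.4 to 554, 697 and 525 (log2FC 0.99 ± 0.15, adjusted p = 4.27e-08). Both were above LPS alone, Tlr2 at a mean of 617 against 356 (log2FC 0.79 ± 0.14, adjusted p = 1.44e-05) and Cd14 at 592 against 359 (log2FC 0.72 ± 0.14, adjusted p = 0.000184). With (+)-JQ1 alone the means were 367 and 671. An intronic peak of Tlr4, the LPS receptor, fell from 50.3, 38.2 and 43.2 to 27.4, 24.6 and 19.7 (log2FC -0.90 ± 0.29, adjusted p = 0.0188), lost in 8 of 21 alternatives.

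Socs3, the feedback inhibitor of cytokine receptors, rose at 19 of 27 peaks, with 285, 327 and 358 promoter counts before and 1347, 1154 and 1115 after (log2FC 1.89 ± 0.14, adjusted p = 5.51e-21). Downstream of the kinase gene Pim1, a weak peak (chr17:29638860-29639412) went from 10.1, 8.26 and 7.21 to 82.2, 73.8 and 61.9 (log2FC 3.07 ± 0.34, adjusted p = 2.8e-12). It averaged 34.5 with LPS alone, below LPS + (+)-JQ1 (adjusted p = 0.00613). The Stat3 promoter did not pass the test, with 430.0, 459 and 343 counts in unstimulated cells and 571, 460.4 and 442 with LPS + (+)-JQ1 (log2FC 0.25 ± 0.14, adjusted p = 0.204). LPS alone averaged 827, above LPS + (+)-JQ1 (log2FC -0.76 ± 0.14, adjusted p = 2.62e-05). In an intron of Stat4 a peak fell by 0.74 on the log2 scale.

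Enzymes of inflammation and genes of antigen presentation also had more rises than falls. Near 12 inflammatory enzymes and acute-phase genes 59 of 203 peaks rose and 4 fell (29.1% and 1.97%, against 10.0% and 7.84% of all tested peaks). Irg1, whose product makes itaconate, went at its promoter from 161, 174 and 196 to 962, 687 and 612 (log2FC 2.08 ± 0.15, adjusted p = 6.05e-22). Ptgs2 (cyclooxygenase-2) and Nos2 (inducible nitric oxide synthase) rose by log2FC 1.44 and 1.10. The intronic peak of Ptges, the prostaglandin E synthase gene, whose AP-1 letters are shown above, went from 40.2, 39.2 and 25.7 to 254, 188 and 136 (log2FC 2.43 ± 0.21, adjusted p = 6.94e-18). The promoters of Arg1, of the arginase of alternatively activated macrophages, and Lcn2, of lipocalin-2, did not pass the test (adjusted p = 0.996 and 0.837). The largest fall of this list at a mean of at least 20 counts, near Hmox1 and in an intron of Mcm5, had 64.1, 34.1 and 22.6 and 13.0, 24.6 and 24.0 counts, which overlap (log2FC -0.90 ± 0.34, adjusted p = 0.0474), and the call was lost in 15 of 20 alternatives.

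Of peaks near 15 genes of antigen presentation and costimulation, 87 of 239 rose (36.4%) and 1 fell (0.42%), with a median log2FC of 0.42. All tested peaks had 10.0% and 7.84%. Cd40, the receptor for T cell help, went at its promoter from 256, 258 and 357 to 1168, 829 and 786 (log2FC 1.67 ± 0.14, adjusted p = 2.13e-17), and at a distal peak (chr2:164898720-164899237) from 13.8, 23.7 and 10.3 to 157, 82.0 and 77.9 (log2FC 2.66 ± 0.27, adjusted p = 5.61e-14). Cd274, the gene of PD-L1, went from 167, 207 and 260.4 to 757, 664 and 603 (log2FC 1.66 ± 0.15, adjusted p = 4.35e-17). The class I genes H2-K1, H2-D1 and B2m rose by log2FC 1.02, 0.99 and 0.97. The one fall, near Cd74, the invariant chain gene, lay in an exon of Tcof1, at 96.8, 107 and 105 counts before and 63.4, 50.2 and 76.5 after (log2FC -0.69).

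Near genes of lipid handling and LXR targets, 35 of 245 peaks fell (14.3%) against 7.84% of all tested peaks, and 17 rose, with a median log2FC of -0.07, against -0.06 for all peaks. The number of rises depended on single libraries, at 8 without unstimulated replicate 1 and 33 without replicate 3, where rises and falls were equal in number, and total counts gave 4 higher and 60 lower. Apoe, the apolipoprotein of cholesterol transport, fell at its promoter from 228, 293 and 372 to 157, 169 and 157 (log2FC -0.89 ± 0.15, adjusted p = 3.83e-06). The mean was 116 with LPS alone and 497 with (+)-JQ1 alone, on opposite sides of the resting mean of 297. Near Lgals3 (galectin-3), a peak in an exon of Dlgap5 (chr14:48010428-48011731) fell from 189, 248 and 308 to 43.3, 68.7 and 76.5 (log2FC -1.94 ± 0.19, adjusted p = 1.29e-14). Abca1, the cholesterol exporter, had 8 of 25 peaks lower and 3 higher, its promoter was higher (log2FC 0.67), and an upstream peak went from 20.1, 14.5 and 16.5 to 51.9, 27.7 and 29.9 (log2FC 1.06 ± 0.34, adjusted p = 0.0162).

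Lysosome and cathepsin genes had 27 peaks higher and 18 lower of 209 (12.9% and 8.61%), near the 10.0% and 7.84% of all tested peaks, and the balance turned to 12 higher and 36 lower with total counts and 12 and 28 with offsets that follow peak strength. The most accessible promoter peak of Ctsd, which is not the peak over its exon given above, fell from 536, 701 and 767 to 471, 448 and 429 (log2FC -0.58 ± 0.13, adjusted p = 0.000698). The largest rise of the lysosome list at a mean of at least 20 counts, within 25 kb of Lipa, lies in an intron of the interferon-stimulated Ifit2 (chr19:34626064-34628747), with 96.8, 131 and 129 and 391, 490.1 and 501 counts. For Fc receptor and phagocytosis genes 40 of 249 rose and 16 fell (16.1% and 6.43%, the falls below the share of all tested peaks), which turned to 19 higher and 39 lower with total counts. Opposite examples were Fcgr2b, the inhibitory Fc receptor, where an upstream peak went from 143, 140.4 and 195 to 588, 469.6 and 389 (log2FC 1.58 ± 0.15, adjusted p = 1.83e-15), and Mertk, the receptor for apoptotic cells, where one fell from 45.3, 22.7 and 34.0 to 13.0, 20.5 and 9.47 (log2FC -1.25 ± 0.38, adjusted p = 0.0106).

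Macrophage lineage factors had 51 higher and 25 lower of 290 peaks (17.6% and 8.62%, against 10.0% and 7.84% of all tested peaks). The balance turned to 26 higher and 57 lower with total counts and 27 and 31 with offsets that follow peak strength. An intronic peak of Mitf, a regulator of lysosomal genes (chr6:97911492-97913887), went from 59.1, 61.9 and 61.8 to 335, 212 and 170.5 (log2FC 1.94 ± 0.18, adjusted p = 1.46e-15). A peak in an exon of Maf, a factor of resident macrophages (chr8:118207588-118208678), went from 64.1, 32.0 and 23.7 to 21.6, 12.3 and 16.0 (log2FC -1.26 ± 0.33, adjusted p = 0.00289), with unstimulated replicate 1 well above the other resting libraries.

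The targets of (+)-JQ1 and its partners were examined as a list of 10 BET and P-TEFb genes, with Myc among them, for which 24 of 159 peaks rose and 3 fell, 17.0% called against 17.8% of all peaks. With total counts the list had 10 higher and 11 lower. Near Brd2, a BET gene, 10 of 21 peaks rose. A distal peak 7122 bases downstream of its TSS (chr17:34243129-34243982) went from 41.5, 53.7 and 60.7 to 226, 236 and 234 (log2FC 2.15 ± 0.18, adjusted p = 1.09e-17), and the treated libraries were nearly equal. It averaged 149.8 ± 2.26 with (+)-JQ1 alone and 89.5 ± 18.2 with LPS alone (SD, n = 3). LPS + (+)-JQ1 exceeded both LPS (log2FC 1.39 ± 0.17, adjusted p = 5.28e-10) and (+)-JQ1 (log2FC 0.63 ± 0.16, adjusted p = 0.00387). The Hexim1 and Myc promoters, at log2FC 0.43 and 0.44, were not called.

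Among phosphatases of MAP kinases and mRNA decay factors, 37 of 223 peaks rose and 14 fell (16.6% and 6.28%, against 10.0% and 7.84% of all tested peaks), and 22 higher and 28 lower with total counts. Near Dusp2, a phosphatase gene, a peak in an exon of Astl went from 26.4, 21.7 and 7.21 to 156, 85.1 and 69.2 (log2FC 2.46 ± 0.29, adjusted p = 1.19e-11). At Zfp36l2, the gene of an RNA-binding protein that destabilises messages, the peak shown above (chr17:84576608-84579723) fell from 424, 574 and 671 to 139.9, 203 and 178 (log2FC -1.67 ± 0.15, adjusted p = 3.33e-17). LPS alone averaged 96.7 ± 2.50 there (SD, n = 3), lower than LPS + (+)-JQ1 (log2FC 0.86 ± 0.16, adjusted p = 8.58e-05). Cell cycle genes had 19 peaks higher and 24 lower of 227 (8.37% and 10.6%), near the shares of all tested peaks, and the balance turned to 34 higher and 26 lower without unstimulated replicate 3. Glycolysis genes with Hif1a had 34 and 16 of 268 (12.7% and 5.97%), and housekeeping genes, the reference, 27 and 12 of 233 (11.6% and 5.15%), near the 10.0% and 7.84% of all tested peaks. With total counts these turned to 15 higher and 35 lower and to 9 higher and 27 lower.

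Single peaks near metabolic, cell cycle and housekeeping genes also changed. Upstream of Hif1a, the oxygen-sensing factor that also drives glycolysis in activated macrophages, the peak shown above (chr12:74997185-74997980) went from 28.9, 12.4 and 26.8 to 83.6, 74.8 and 87.4 (log2FC 1.87 ± 0.26, adjusted p = 9.28e-09). Near Ldha, lactate dehydrogenase, a peak between genes (chr7:54082368-54083626) fell from 44.0, 53.7 and 51.5 to 14.4, 17.4 and 21.9 (log2FC -1.43 ± 0.29, adjusted p = 7.78e-05). Upstream of Ccne1 (cyclin E1) a peak (chr7:38908310-38909721) went from 25.1, 25.8 and 17.5 to 63.4, 44.1 and 50.3 (log2FC 1.19 ± 0.27, adjusted p = 0.000573), where LPS alone averaged 123 (log2FC -1.24 ± 0.22, adjusted p = 2.82e-05). None of these groups overlapped, as held for 13.3% of distal peaks in the higher and 16.8% in the lower direction. Near Mcm7, a subunit of the replicative helicase, a peak in an exon of Cops6 fell by 1.59 on the log2 scale. The housekeeping genes Actb and Rps3 had a weak upstream peak with a log2FC of 1.12 and a peak in an exon of Gdpd5 with a log2FC of -1.05.

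**Figure D3:**
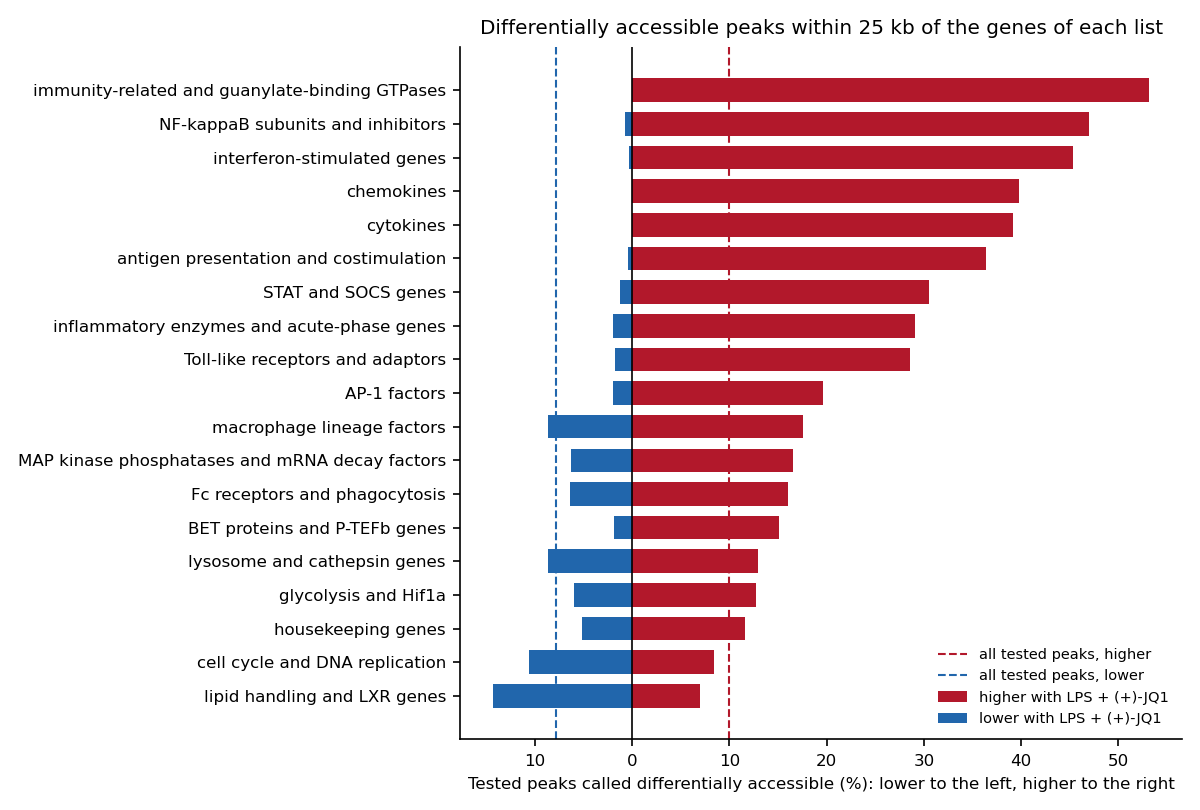
Bars give the percentage of tested peaks within 25 kb of the TSSs of each list's genes that were higher (red, to the right) or lower (blue, to the left) with LPS + (+)-JQ1, and dashed lines the same for all tested peaks. The GTPase, NF-kappaB, interferon, chemokine and cytokine lists reach 39.2% to 53.2% higher, and the lipid list has 14.3% lower.

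The promoters of the lists were set against those of housekeeping genes under 3 scalings. With TMM, all 19 lists had a positive median log2FC at their promoters, from 0.37 for lipid genes to 1.20 for the GTPases, and housekeeping genes lay at 0.45. With offsets that follow peak strength the GTPase, chemokine, interferon-stimulated and cytokine promoters were at 0.77, 0.92, 0.59 and 0.45, while the BET, cell cycle, lysosome, MAP kinase phosphatase and housekeeping lists had medians of -0.07, -0.06, -0.15, -0.06 and -0.01. The direction of the last 5 thus turned with these offsets, and that of the first 4 and of all other lists did not. Among the others, antigen presentation, inflammatory enzyme and Toll-like receptor promoters were at 0.40, 0.40 and 0.31, and lipid, glycolysis and AP-1 promoters at 0.03, 0.01 and 0.06. NF-kappaB promoters went from 0.71 to 0.19. Within the lanes, the interferon-stimulated promoters had a median of 1.20 on lane 5 and 0.87 on lane 6, and housekeeping promoters 0.64 and 0.17.

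**Figure D4:**
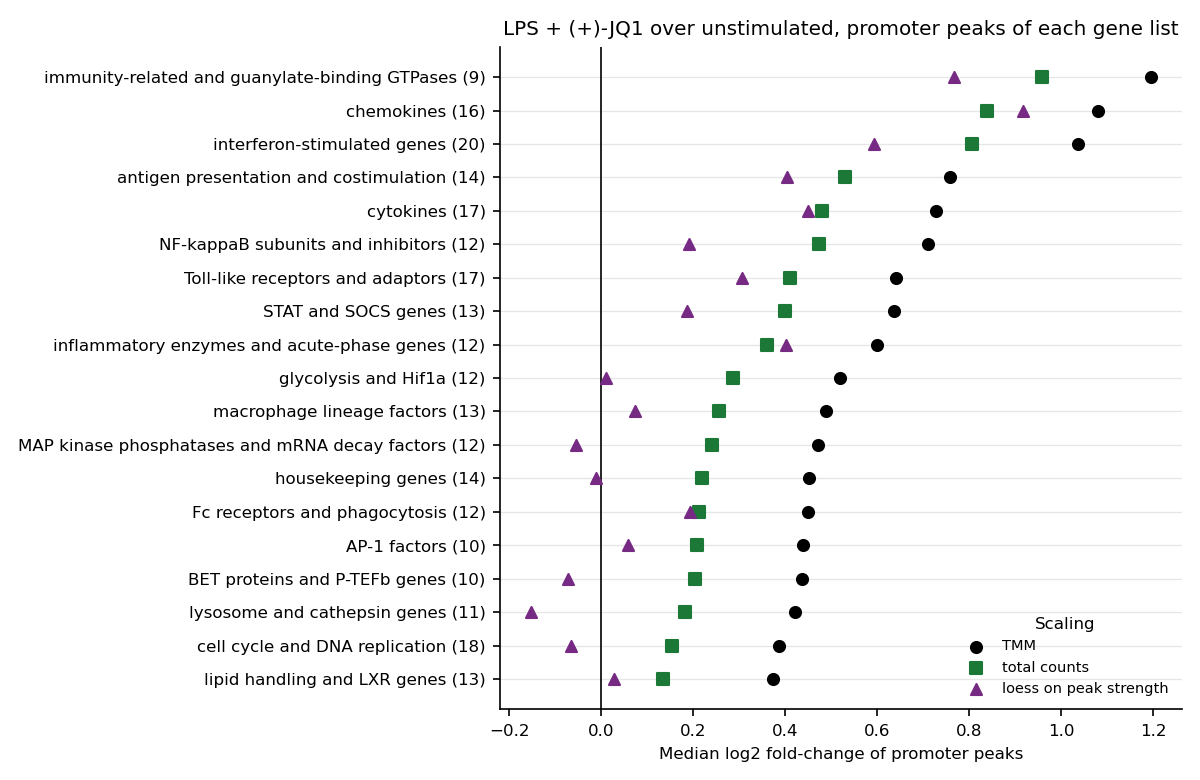
Points give, for each list (number of genes with a promoter peak in parentheses), the median log2 fold-change of LPS + (+)-JQ1 over unstimulated at the most accessible promoter peak of each gene, under TMM (circles), total counts (squares) and loess offsets (triangles). All lists stay to the right of 0 under all 3, except the BET, cell cycle, lysosome, MAP kinase phosphatase and housekeeping lists. Housekeeping genes go from 0.45 to -0.01.

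Rises and falls were also counted by gene and by locus. Of 18524 genes with a tested peak within 25 kb of a TSS, 10612 had at least 1 rise and 7338 at least 1 fall, 3964 had both, and 218 had 10 or more rises against 51 with 10 or more falls. The genes with the most rises were Nfkb1 (35 of 43 peaks), the interferon-induced ubiquitin ligase gene Rnf213 (33 of 39), the phosphatase gene Ptprj (30 of 36) and the ceramide synthase gene Lass6 (24 of 37). At an intronic peak of Rnf213 (chr11:119321388-119322147), counts went from 8.80, 13.4 and 15.4 to 159, 140.5 and 143 (log2FC 3.51 ± 0.25, adjusted p = 8.03e-22). At an intronic peak of Nfkb1 (chr3:135333008-135334498), they went from 71.7, 83.6 and 59.7 to 526, 432 and 474 (log2FC 2.73 ± 0.16, adjusted p = 1.41e-27). At Lass6 the rises were smaller, between log2FC 0.52 and 1.30.

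The genes with the most falls were Iqsec1, a guanine nucleotide exchange factor gene (21 of 58 peaks), Inpp5d, the gene of the lipid phosphatase SHIP1 (20 of 45), Chi3l3, the gene of the chitinase-like protein Ym1 of alternatively activated macrophages (19 of 31), and, with equal numbers, Frmd4b (18 of 72) and Rxra (18 of 30), the partner receptor of LXR and PPAR. Of 2 examples, both of weak peaks, an intronic peak of Chi3l3 (chr3:105989182-105989819) had 26.4, 11.4 and 20.6 counts in unstimulated libraries and 4.33, 2.05 and 8.74 with LPS + (+)-JQ1 (log2FC -1.80 ± 0.51, adjusted p = 0.00541), and an exonic one of Rxra (chr2:27616475-27617351) 40.2, 25.8 and 22.6 and 4.33, 9.23 and 12.4 (log2FC -1.65 ± 0.42, adjusted p = 0.00178). In bins of 200 kb, the most rises lay on chromosome 16 over Parp14, Parp9 and Dtx3l (41 of 67 peaks), genes of ADP-ribosylation in the interferon response, on chromosome 3 over Nfkb1 and Manba (40 of 60), on chromosome 2 over Ptprj (39 of 45) and on chromosome 1 over Il10, Il19, Il20 and Mapkapk2 (37 of 53). Lower in that order, and picked for their genes after the values were seen, were bins on chromosome 11 over the Slfn cluster (30 of 43) and on chromosome 17 over Brd2 and class II and antigen processing genes (29 of 69). The most falls lay over Cpne3 (29 of 50), the blood cell transcription factor gene Runx1 (27 of 64), the growth factor gene Igf1 (25 of 55) and Xylt1 (25 of 64). A locus with many peaks can hold many DARs, so the counts are given with the number of peaks tested.

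The letters of transcription factor motifs were counted in the central 500 bases of the peaks. The AP-1 letters stood in 19.3% of all tested distal peaks, in 27.5% of those that rose and in 15.3% of those that fell. The IRF letters stood in 7.44%, 12.4% and 4.81%, and in 15.8% of those with a log2FC above 1. At promoters with a log2FC above 1, 20.5% held the AP-1 and 18.2% the IRF letters, against 12.7% and 6.10% of all promoters. Over all promoter rises the AP-1 share was 12.7%, the same as for all promoters, and the IRF share 8.38%. The kappaB letters, which are loose and GC-rich, stood in 42.4% of distal rises and 48.1% of distal falls, and the PU.1 letters in 22.9% and 25.2%. At promoters the kappaB letters went the other way, with 66.4% of rises, 58.3% of falls and 58.4% of all promoters. This did not hold for promoters with a log2FC above 1, of which 48.7% held them. Their median GC content was 45.6%, against 54.2% for all promoter rises. In the central 200 bases the AP-1 shares were 9.36%, 13.5% and 6.54%, and the IRF shares 3.14%, 5.86% and 1.89%. These are counts without a test. Distal rises were also wider and stronger at rest, with a median width of 1391.5 bases and 80.4 unstimulated counts against 906 bases and 30.9 counts for all distal peaks, and had a median GC content of 44.4% against 48.0% for falls, and the part of width, strength and base composition in the motif shares was not tested.

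**Figure D5:**
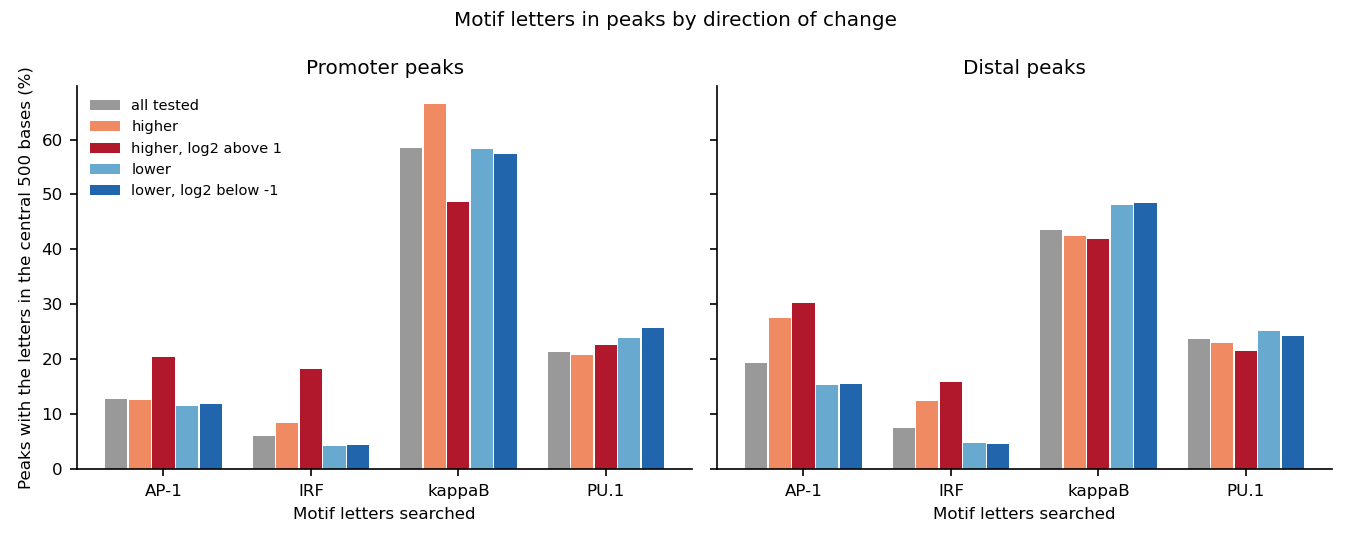
Bars give the percentage of promoter peaks (left) and distal peaks (right) whose central 500 bases hold the letters searched for each factor, for all tested peaks (grey), DARs that were higher (orange, red above a log2 fold-change of 1) and DARs that were lower (light and dark blue). AP-1 and IRF bars are tallest in the red group on both sides, at 30.3% and 15.8% in distal peaks.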

How the data were processed

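ATAC-seq libraries of 6 groups of 3 were analysed, of which the LPS + (+)-JQ1 and the unstimulated group are compared here. Per the methods, the authors processed reads with PEPATAC, which aligns with Bowtie2 (mm9), called peaks with MACS2 in each library, joined them into a union set and classed peaks as promoter or distal with ChIPseeker. The authors deposited raw read counts per peak and library, without normalization. The tool that counted reads is not given in the sources used here, nor is whether cut sites were shifted. The deposited table has 194284 peaks, 36670 promoter and 157614 distal, and 6 further columns of per-library counts that match no sample here were not used.

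Counts were tested with edgeR 4.0.16 (R 4.3.3, limma 3.58.1) over all 18 libraries, with filterByExpr, TMM factors, the quasi-likelihood test and Benjamini-Hochberg adjustment over 194230 peaks. Normalised counts were scaled to an effective library size of 18785971 reads. DESeq2 1.42.0, other scalings, filters and thresholds, a replicate block, sequencing lanes, windows of 10 and 50 kb and leaving out each library were alternatives, with the interaction taken as the LPS effect with (+)-JQ1 minus that without. On simulated counts 164 of 200 peaks changed by 1.5 (log2) were recovered, and 5 of the unchanged among 193344 were called. All groups were drawn from the unstimulated means, and only these 200 peaks changed, up or down in equal number. The simulation thus lacks the shifts with peak strength and promoter share of the real libraries, and false calls under such shifts were not tested. Positions and gene names came from the GENCODE annotation of the mm9 assembly, with 304 of 308 list genes matched, and motifs from the mm9 sequence.

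The peaks named were, first, the 5 distal and 4 promoter peaks with the largest rise and with the largest fall, 1 per nearest gene, at a mean of at least 50 normalised counts, with each same-numbered pair of libraries changing alike. To these were added the DARs with the largest rise and fall of each list at a mean of at least 20, the 4 genes with the most rises and falls within 25 kb, and the most accessible promoter peak of list members. Some of these peaks are not reported here. The comparison, the gene lists and the tests were chosen with earlier results of these data known. The libraries came from 3 mice, and p-values measure the spread between libraries. Depth, at 12020526 to 25908198 counts in peaks, limits peaks of few counts most.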

Additional observations from a re-analysis of the deposited data

Results flagged for a closer look

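At 9 of the named peaks the change from unstimulated to LPS + (+)-JQ1 differed from the sum of the changes with either agent alone, by a test of the interaction in edgeR. Over all tested peaks this test passed at 3.84%. The named peaks make 53 entries, in which a peak picked under 2 rules is counted under each, and were picked for the size of their change. Among rises, the LPS effect was smaller with (+)-JQ1 at the peak near Ccl4 (interaction log2 -0.98 ± 0.25, adjusted p = 0.0128), upstream of Atf3 (interaction log2 -0.72 ± 0.21, adjusted p = 0.0301) and in Ifit2 near Lipa (interaction log2 -0.70 ± 0.22, adjusted p = 0.0443), and larger at Tnfaip2 (interaction log2 0.80 ± 0.22, adjusted p = 0.0223). At Tnfaip2, LPS changed the peak by log2FC 2.76 with (+)-JQ1 and by 1.96 without. Among falls, the LPS effect was smaller with (+)-JQ1 at Entpd1 (interaction log2 1.97 ± 0.38, adjusted p = 0.000838), Slamf6 (interaction log2 1.15 ± 0.24, adjusted p = 0.00326), Zfp36l2 (interaction log2 1.10 ± 0.21, adjusted p = 0.00109), Dnm1l (interaction log2 1.07 ± 0.28, adjusted p = 0.0174) and BC051665 (interaction log2 0.95 ± 0.26, adjusted p = 0.0212). At Entpd1, LPS changed the peak by log2FC -0.66 with (+)-JQ1 and by -2.63 without, and (+)-JQ1 alone had lowered it by log2FC -1.90. (+)-JQ1 alone had also lowered the peaks at Slamf6, Dnm1l and BC051665, by log2FC -1.08, -1.15 and -1.20. At these 3 and Entpd1, LPS + (+)-JQ1 did not differ from LPS by the test (log2FC 0.07, -0.08, -0.24 and 0.07). At Zfp36l2 the log2FC was -0.25 with (+)-JQ1 alone, which did not pass the test, and 0.86 for LPS + (+)-JQ1 over LPS.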

How the results depend on the processing

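The numbers of DARs that rose and fell, 19414 and 15231 (promoters 6268 and 1911, distal 13146 and 13320), depended on scaling and threshold. They were 8783 and 33751 (promoters 1747 and 4782, distal 7036 and 28969) with total counts, 5319 and 2341 (promoters 934 and 234, distal 4385 and 2107) with a test against a log2FC of 0.5, 5649 and 8455 (promoters 782 and 738, distal 4867 and 7717) above a log2FC of 1 and 5747 and 2972 (promoters 1131 and 476, distal 4616 and 2496) within lane 6. Loess offsets gave 12423 rises (1739 promoter) and 8707 distal falls, at least 10 counts in every library 12767 rises (3698 promoter), lane 5 8523 falls (1202 promoter, 7321 distal), an FDR under 0.01 6603 falls (922 promoter, 5681 distal) and separate fits of both peak classes 2148 promoter rises and 4532 falls, with 15106 and 9507 at distal peaks. The share of DARs that rose was 56.0%, and 70.8% in lane 5, 70.8% at an FDR under 0.01, 40.1% above a log2FC of 1 and 63.5% in DESeq2, with 13128 distal rises and 9966 falls. The causes of these shifts were not tested, beyond the fewer libraries per lane. Leaving out 1 library gave 14525 to 24064 rises and 10068 to 16082 falls, 3651 to 9468 and 1331 to 2004 at promoters and 10874 to 14596 and 8737 to 14078 at distal peaks. Promoter rises were lowest without unstimulated replicate 1 and highest without unstimulated replicate 3, and falls were lowest without unstimulated replicate 2.

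The labels do not tie replicate numbers to mice, and deviations of same-numbered libraries correlated at r = 0.03, -0.01 and -0.03. With a replicate block 19515 peaks rose and 15023 fell. Every one of the 18 peaks of largest change kept its direction and call in each alternative that could be fitted. Calls were less firm for falls of weak peaks near Hmox1 (log2FC 0.10 within lane 6), Nfkbid, Tlr4, Mertk, Stat4, Fosl2, Maf, Cd74 and Oas2, and for rises near Abca1 and Actb. Without unstimulated replicate 1 the falls near Oas2 (-0.46), Nfkbid (-0.92), Fosl2 (-0.67), Hmox1 (-0.42), Mertk (-1.004), Tlr4 (-0.80) and Maf (-0.77) did not pass the test, and without unstimulated replicate 3 that near Stat4 (-0.46) did not. Without LPS + (+)-JQ1 replicate 1 the rises near Abca1 (0.77) and Actb (0.86) and without its replicate 2 the fall near Cd74 (-0.54) did not.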

Other observations

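The X chromosome departed from the other chromosomes in the balance of changes. Of 3406 tested peaks on it, 555 (16.3%) rose and 89 (2.61%) fell with LPS + (+)-JQ1, against 10.0% and 7.84% of all tested peaks. Its share of the counts in peaks was 1.18%, 1.28% and 1.40% in unstimulated replicates 1, 2 and 3, and 1.42% to 1.45% with LPS + (+)-JQ1, 1.48% to 1.51% with (+)-JQ1 and 1.37% to 1.40% with LPS. The lowest share was in unstimulated replicate 1, the library with the fewest counts and the smallest promoter share, and unstimulated replicate 3 lay near the treated libraries. The part of these properties in the X-linked rises was not tested.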
